A study of Mus musculus with 10 samples.

Results

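The genes described here encode the proteins of the cytosolic ribosome. They were taken by name: protein-coding genes whose symbol is Rpl or Rps followed by a digit, or Rpsa, Rplp0, Rplp1 or Rplp2, without pseudogenes and without the Rps6k kinases. This gave 86 candidates, of which 81 averaged at least 10 normalized counts across the 10 libraries and were tested among 17007 genes. By role, 47 belonged to the large subunit and 32 to the small subunit, near-copies (paralogs) of subunit genes included. The other 2, Rps19bp1 and Rpl7l1, carry such a name but are not structural ribosomal proteins.

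RNA was measured in microdissected dentate gyrus, the part of the hippocampus whose granule neurons are renewed in adult mice. Both groups were C57Bl/6 mice aged 8 weeks that received 1 µl of adeno-associated virus (AAV) of serotype 9 into the gyrus on each side. In 5 mice the virus encoded Sox11, a transcription factor of immature neurons, and in 5 control mice it encoded GFP. Every mouse was therefore injected with virus, and no uninjected tissue enters the comparison. The promoter that drove the viral gene and the cells it reached were not given in the sources used here. In whole tissue, more cells of a type and more RNA per cell cannot be told apart.

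A eukaryotic ribosome has a small subunit, which binds the mRNA and reads its codons, and a large subunit, which joins the amino acids and carries a flexible stalk that recruits elongation factors. The proteins are used in near equal numbers, and most of their mRNAs begin with a C followed by a run of C and T bases, the 5′ terminal oligopyrimidine (TOP) motif. Through this motif the kinase mTORC1 and the RNA-binding protein Larp1 control how much of the mRNA is translated, a step that RNA levels do not show. In neurons the growth of axons and dendrites draws on ribosome production.

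Sequences around the annotated start show what this motif looks like in members that rose in the Sox11 group and in members that did not pass the test. RefSeq (GRCm38.p6) gave a start region for 61 of the 81 members. Each line below has 20 bases before and 10 bases from a C that is followed by at least 4 C or T bases, the nearest such C within 5 bases of the RefSeq start. Capitals mark the C and T bases from that point on within the 10 bases, and C or T bases can also stand before it. Rps26, Rps9, Rpl31 and Rpl34 rose. Rps6, Rps18, Rps27 and Rpl22l1 did not pass the test.
Rps26 (chr10:128626493-128626522, minus strand): ggtcgggcaagccgccggatCCTCTTTCga
Rps9 (chr7:3704018-3704047, plus strand): tcggtccaaccgccttgtctCTCTTTgtct
Rpl31 (chr1:39367828-39367857, plus strand): ccacacctcttcctcctcgcCTCCCCgtga
Rpl34 (chr3:130730388-130730417, minus strand): gcgccgccttccctgacgtaCTTCCTgtcc
Rps6 (chr4:86857358-86857387, minus strand): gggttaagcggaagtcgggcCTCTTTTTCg
Rps18 (chr17:33955656-33955685, minus strand): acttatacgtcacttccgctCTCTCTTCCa
Rps27 (chr3:90213639-90213668, minus strand): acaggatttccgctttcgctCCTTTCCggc
Rpl22l1 (chr3:28805491-28805520, plus strand): gcgtgcggcgcaagcccgttCTCTTCCCac
A C followed by at least 4 C or T bases stood exactly at the RefSeq start of 13 of the 61 members (21.3%) and of 3.01% of all 27025 genes in the table. Of the 12 members that rose and have a RefSeq start region, 0 were among those 13. Within 5 bases of the start, such a stretch was found in 29 of 61 members (47.5%) and in 21.2% of all genes. It was found in 5 of the 12 members that rose and in 24 of the other 49. Annotated starts can be off by some bases, so these shares describe the annotation.

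The deposited table held normalized counts for 48526 gene identifiers, from which 45100154 to 68769808 whole reads per library were recovered. The 5 GFP libraries are numbered 1, 3, 4, 5 and 6 in the table and the 5 Sox11 libraries 1, 2, 3, 6 and 7. Sox11 itself had 1364 to 1634 normalized counts in the GFP libraries and 9803 to 20434 in the Sox11 libraries, with Sox11 3 the highest, and its rows do not tell the viral from the mouse transcript. Choroid plexus markers summed to 576004 normalized counts in GFP 3 and to 4370 to 9510 in the other 9 libraries. The granule neuron markers summed to 90990 to 126578 (GFP) and 96436 to 131393 (Sox11), and 12 of 12 were detected.

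A part of the ribosomal protein mRNAs was slightly higher in the Sox11 group, and none passed the test as lower. Of the 81 genes, 17 rose (21%) and 0 fell at an adjusted p below 0.05, by limma over all 17007 genes with Benjamini-Hochberg adjustment. Over all genes tested, 9.65% rose and 9.36% fell. The changes were small: the 17 rose by 10.3% to 23.7%, while all genes that passed the test had a median absolute log2 fold change of 0.32. At an unadjusted p below 0.05, 29 members were higher and 2 lower.

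Fold changes above 0 outnumbered those below 0. The log2 fold change, Sox11 minus GFP on the scale of log2(normalized count + 1), was above 0 for 63 members and below 0 for 18. Its median was 0.07 over the members, equal to 4.82%, with quartiles of 0.01 and 0.14 and a range from -0.28 to 0.31. Over all genes tested the median was -0.01 with quartiles of -0.15 and 0.14. In 21 members every Sox11 library lay above every GFP library, and in 0 every one lay below. Over all genes the groups were apart in this way for 8.63% upward and 7.29% downward.

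**Figure D1:**
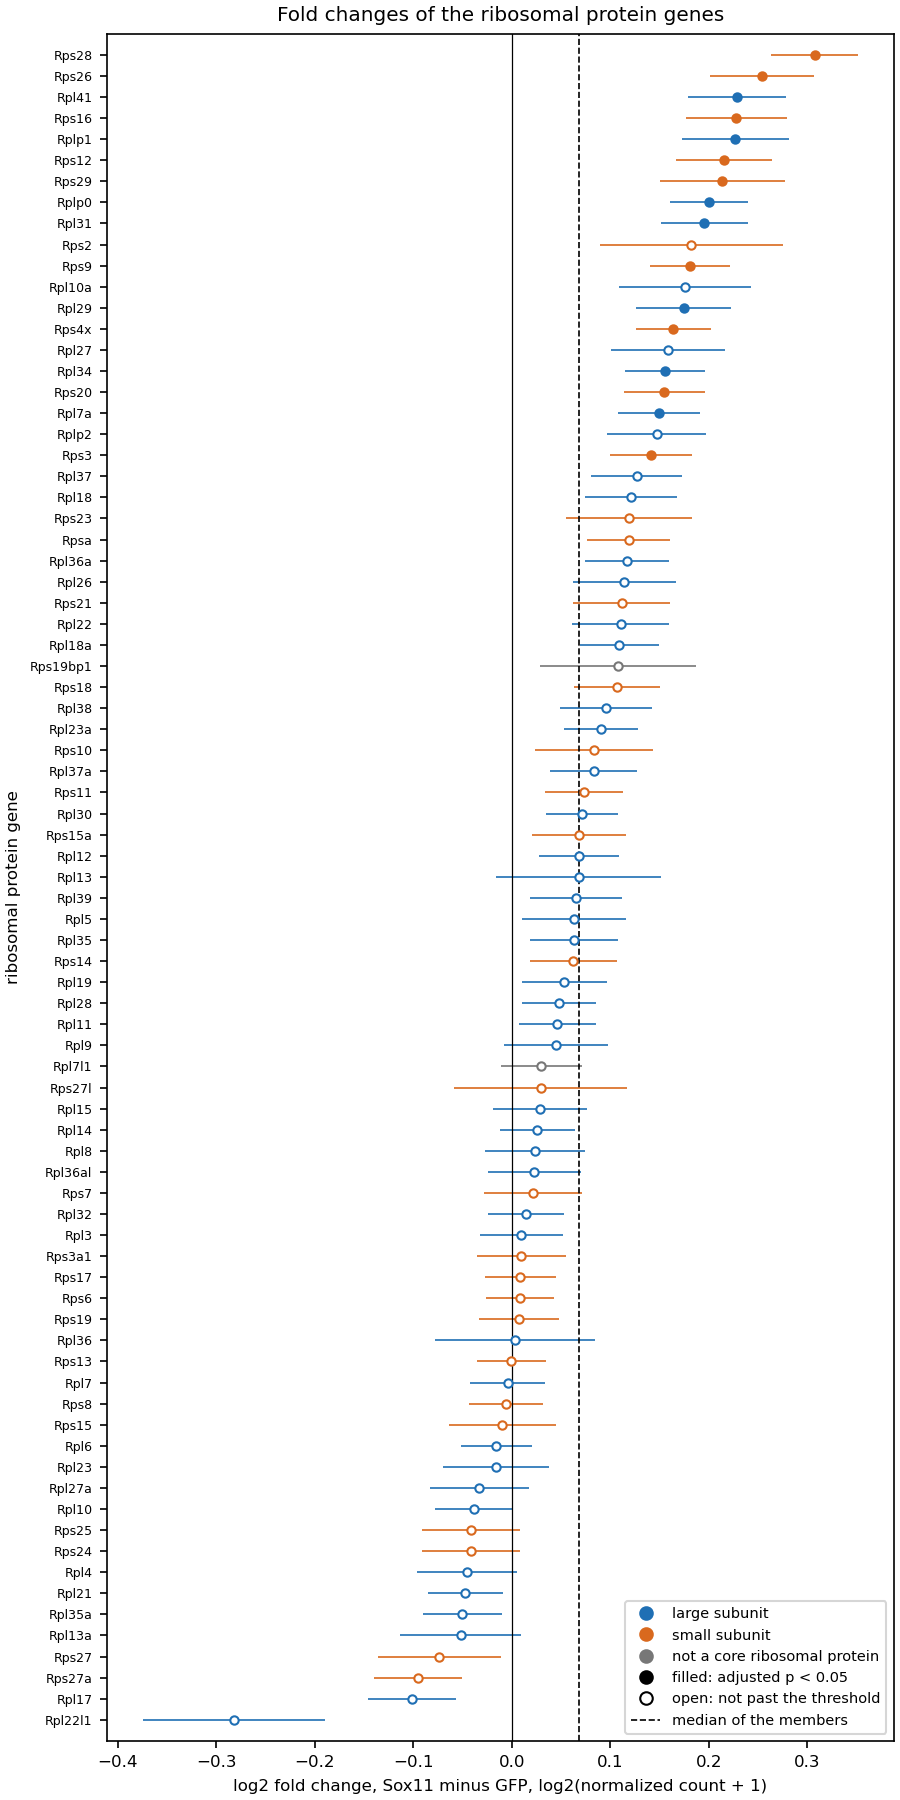
Log2 fold change (x axis, Sox11 minus GFP, n = 5 each) of the ribosomal protein genes (y axis, 1 gene a row, without a gene not reported here), coloured by subunit, with filled points for an adjusted p below 0.05 and a dashed line at the median of 0.07. All filled points lie right of 0, from 0.14 to 0.31, and the point farthest left is Rpl22l1 at -0.28.

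These genes were measured more evenly than most genes tested, and the difference was smaller against genes of like length and level. Their coefficient of variation among the 5 GFP libraries had a median of 3.52% (range 0.911% to 12.8%), against 9.69% over all genes tested. The standard error of the log2 fold change had a median of 0.05 over the members and 0.09 over all genes. Other protein-coding genes of similar transcript length (494 to 1613 bases, n = 2537) rose in 9.11% and fell in 6.42% of cases, with a median log2 fold change of 0.01. Those that also lay in the members' range of levels numbered 382, of which 40 rose and 42 fell, with a median of -0.01. In these 382 genes the coefficient of variation among GFP libraries had a median of 4.99%. Their standard error had a median of 0.053, against 0.045 over the members.

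Among small subunit genes, 10 of 32 rose and 0 fell, with a median log2 fold change of 0.08. Rps28 (ENSMUSG00000067288, chromosome 17, 33819027 to 33824562, minus strand), whose protein sits where the mRNA leaves the subunit, had the lowest p. Positions given for genes are the bounds of their exons and introns in GENCODE M21 on GRCm38. Rps28 had 1631, 1588, 1543, 1608 and 1726 normalized counts in GFP 1, 3, 4, 5 and 6, and 1952, 2074, 2074, 2003 and 1917 in Sox11 1, 2, 3, 6 and 7. All Sox11 libraries lay above all GFP libraries. Its level rose from 1619 ± 67.8 to 2004 ± 70.8 (mean ± SD, n = 5 each), which is a log2 difference of 0.31 (SE 0.04, limma adjusted p = 0.000807).

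Rps26 (chromosome 10, 128624534 to 128626747, minus strand) encodes a neighbour of Rps28 on the path of the mRNA. Its values were 3339, 3157, 3142, 3369 and 3239 in the GFP libraries and 3596, 3911, 4355, 3760.1 and 3782 in the Sox11 libraries, in the same order of numbers. The groups did not overlap, and Sox11 3 was the highest. The log2 fold change was 0.25 (SE 0.05, adjusted p = 0.00647).

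Rps16 (chromosome 7, 28350652 to 28353155, plus strand), whose tail reaches the tRNA in the peptidyl site, had 2831, 2716, 2599, 2623 and 2811 in the GFP libraries and 3118, 3477, 3312, 3022 and 2994 in the Sox11 libraries, a log2 fold change of 0.23 (adjusted p = 0.00974). Rps9 (chromosome 7, 3703993 to 3706897, plus strand), part of the mRNA entry, had 8711, 8737, 8084, 8549 and 8109 and 9624, 9176, 9687, 9749.6 and 9566, a log2 fold change of 0.18 (adjusted p = 0.00988). In both genes the lowest Sox11 library was above the highest GFP library.

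Rps12 (chromosome 10, 23785183 to 23787275, minus strand), a protein of the small subunit's beak, stood at 6783, 6745, 6829, 6933 and 6927 in the GFP libraries, a spread of 1.24%. The Sox11 libraries had 8144, 8324, 8438, 7732 and 7158, with Sox11 7 the lowest and still above every GFP library. The log2 fold change was 0.22 (SE 0.05, adjusted p = 0.0104). Small RNA genes on the same strand cover 13.7% of its exonic bases, so some of its reads could have been assigned otherwise.

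Rps4x (chromosome X, 102184941 to 102189394, minus strand), a subunit protein encoded on the X chromosome, had 10808, 11202, 10768, 10872 and 10294 in the GFP libraries and 11974, 11772, 12205, 12319 and 12150.1 in the Sox11 libraries. The Sox11 values were tightly grouped and lay above all GFP values, a difference on the log2 scale of 0.16 (SE 0.04, adjusted p = 0.0119).

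Of the other small subunit genes that passed, Rps20, Rps3 and Rps29 fall outside the naming rule and were singled out after their values were seen. Rps3, a protein of the mRNA entry channel, rose by 10.3% (adjusted p = 0.0356) and Rps20, its neighbour in the head, by 11.3% (adjusted p = 0.0218). Rps29, a zinc-binding protein of the head, had 12304, 12040.5, 12105, 14929.5 and 11623 in the Sox11 libraries against 11084, 10763, 10741, 10825 and 10696 in the GFP libraries. Sox11 6 stood far above the other Sox11 libraries there, and the adjusted p was 0.0366. Leaving out single libraries ended these 3 calls. For Rps20 they were GFP 1, GFP 4 and Sox11 3 (adjusted p up to 0.0543), for Rps3 GFP 1, 3, 4 and 6 and Sox11 1, 3, 6 and 7 (up to 0.0810), and for Rps29 each GFP library and Sox11 1, 2 and 3 (up to 0.0743).

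Rpsa, whose protein sits on the back of the small subunit and is also known as a laminin receptor, had 13705, 13235, 14140.5, 14459 and 14573 in the GFP libraries and 15278, 14909, 14993, 15839 and 15069 in the Sox11 libraries. The groups did not overlap, but the log2 fold change of 0.12 did not pass the test (adjusted p = 0.0734). It passed with total-count scaling (adjusted p = 0.00467), with quantile normalization (0.00533), with the library number, 1 to 3 against 4 to 7, as a covariate (0.0172) and with DESeq2 (0.0054).

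In the large subunit, 7 of 47 genes rose and 0 fell, with a median log2 fold change of 0.06. Of the 3 stalk genes, 2 rose. Rplp0 (chromosome 5, 115559467 to 115563727, plus strand), the base of the stalk, had 9023, 9363, 8951, 9517 and 9273 normalized counts in the GFP group and 10305, 10472, 11187, 10561 and 10470.5 in the Sox11 group. Every Sox11 library exceeded every GFP library, and Sox11 3 lay above the other 4. The level went from 9225 ± 236 to 10599 ± 341 (mean ± SD, n = 5 each), which is a log2 difference of 0.20 (SE 0.04, adjusted p = 0.00495).

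Rplp1 (chromosome 9, 61913284 to 61914542, minus strand) and Rplp2 encode the acidic proteins that hang from Rplp0 as pairs and recruit elongation factors. Rplp1 had 16615, 15544, 16479.8, 17179.5 and 17799 in the GFP libraries and 19650.4, 19283, 21506, 19099 and 18349 in the Sox11 libraries, a log2 difference of 0.23 (SE 0.05, adjusted p = 0.0138). Rplp2 had 6795, 6240.4, 6500.0, 6583 and 6327 and 7446, 7016, 7789, 7146 and 6578. Sox11 7, at 6578, lay below GFP 1, so the groups overlapped and the log2 fold change of 0.15 did not pass (adjusted p = 0.0624). Without Sox11 7 the adjusted p of Rplp2 was 0.0253, and it also passed in edgeR (0.0436), in DESeq2 (0.0168) and with total-count scaling (0.0387). Of the 31-base words of the transcripts of Rplp1, 24.9% are its own, occurring in no other annotated gene, and how reads with several matches were counted is not given in the sources used here.

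Rpl41 (chromosome 10, 128548114 to 128549305, minus strand), which encodes a very short peptide bridging the subunits, had 6921, 6520.2, 6467, 6533 and 6945 in the GFP libraries and 8115, 7790.1, 8487, 7516 and 7252 in the Sox11 libraries. The groups did not overlap, and the log2 fold change was 0.23 (SE 0.05, adjusted p = 0.00853). Rpl31 (chromosome 1, 39367842 to 39371911, plus strand), at the rim of the exit tunnel, had 4939.9, 4700.4, 4715, 4935 and 5374 and 5615, 5488, 5755, 5789.9 and 5566, a log2 fold change of 0.20 (adjusted p = 0.0105). Genes on the opposite strand cover 25.3% of the exonic bases of Rpl31, and the strand setting of the counting is not given in the sources used here. Rpl34 (chromosome 3, 130726831 to 130730398, minus strand), another large subunit protein, had 3657, 3819, 3488, 3686 and 3661 and 4149, 4118, 4272, 3944 and 3909.6. Its groups did not overlap, with a log2 fold change of 0.16 and an adjusted p of 0.0211 that reached up to 0.0529 without GFP 4, Sox11 1 or Sox11 3.

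Rpl29 and Rpl7a also rose and were singled out after their values were seen. Rpl29, known also as a heparin-binding protein, rose by 12.9% (adjusted p = 0.0267), and Rpl7a by 10.9% (adjusted p = 0.0281). Rpl29 lost the call without GFP 3 or 4 or Sox11 1, 2, 3 or 6 (adjusted p up to 0.0603), and Rpl7a without GFP 4 or 6 or Sox11 1, 3 or 6 (up to 0.0659). In all, 11 of the 17 genes kept the call in each of the 10 fits that left out 1 library, among them Rps28, Rplp0, Rps26, Rpl41, Rps16, Rps9, Rps12, Rpl31, Rps4x and Rplp1. With no filter on low values the same 11 passed and Rpl34, Rps20, Rpl29, Rpl7a, Rps3 and Rps29 did not. Rps29 also did not pass in limma without the trend and robust options (adjusted p = 0.0549). The number of members that rose dropped from 17 to 11 without GFP 4 and likewise without Sox11 3. Without GFP 3, the library with the choroid plexus signal, 14 rose and 0 fell.

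**Figure D2:**
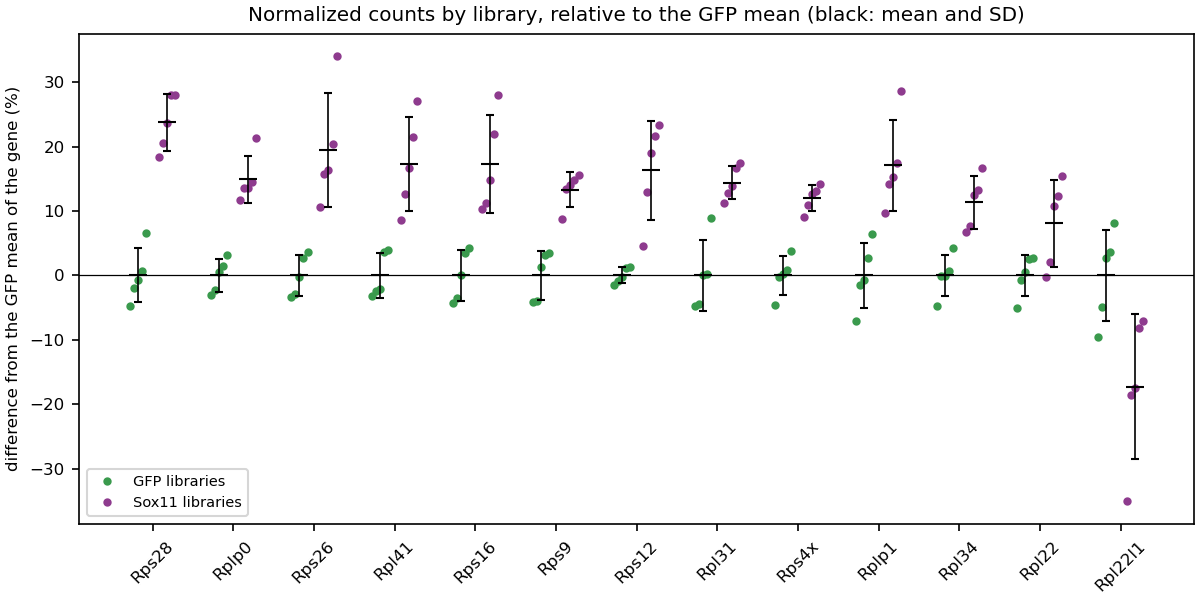
Normalized count of each library as percent difference from the gene's GFP mean (y axis) for 11 of the genes that rose and for Rpl22 and Rpl22l1 (x axis), with 5 GFP points, 5 Sox11 points and the mean and SD in black. The Sox11 points lie above all GFP points in the first 11 genes, and the Sox11 points of Rpl22l1 lie lower, the lowest being Sox11 3.

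Rpl22 and Rpl22l1 (chromosome 3, 28805436 to 28807424, plus strand) encode alternative versions of one RNA-binding protein of the large subunit. Rpl22l1 had 2470.0, 2806, 2690.2, 2668 and 2346 normalized counts in the GFP group and 2113, 2143, 1686, 2411 and 2383 in the Sox11 group. Sox11 3 was the lowest, and Sox11 6 and 7 fell within the GFP range. Its level was 2596 ± 185 and 2147 ± 291 (mean ± SD, n = 5 each), which is a log2 difference of -0.28 (SE 0.09) that did not pass the test (adjusted p = 0.0541).

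Rpl22l1 lay close to the threshold. It passed as lower without Sox11 6 or without Sox11 7 (adjusted p down to 0.0401), with a minimum mean of 50 (0.0483) and in DESeq2 (0.0266), and leaving out other libraries gave adjusted p up to 0.113. Rpl22 (chromosome 4, 152325742 to 152334071, plus strand) had 5670.5, 6125, 6011, 6139 and 5931 in the GFP libraries and 5963, 6104, 6619, 6709 and 6896 in the Sox11 libraries. Its Sox11 3, 6 and 7 were above all GFP libraries and its Sox11 1 and 2 were not, giving a log2 fold change of 0.11 (adjusted p = 0.149, and 0.0195 with total-count scaling). The difference between the fold changes of the pair was not tested.

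The 120 bases before the RefSeq start of Rpl22l1 are shown beside those of Rpl41, a member that rose, because the letters found there differ. Capitals mark matches, on either strand, to TATAAA in Rpl22l1 and to CCGGAAG and GGGCGG in Rpl41.
Rpl22l1 (chr3:28805388-28805507, plus strand): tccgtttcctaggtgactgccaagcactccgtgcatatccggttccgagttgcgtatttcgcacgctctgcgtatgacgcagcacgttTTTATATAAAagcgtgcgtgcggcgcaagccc
Rpl41 (chr10:128549169-128549288, minus strand): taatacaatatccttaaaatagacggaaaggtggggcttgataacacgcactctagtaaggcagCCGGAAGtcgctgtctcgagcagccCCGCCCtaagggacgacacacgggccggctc
In Rpl22l1, TATAAA matches once on each strand and the matches overlap. TATAAA, the TATA box, was found in 7 of 61 members (11.5%) and in 15.7% of all 27025 genes, within the 250 bases before and 50 bases after the start and on both strands. CCGGAAG, bound by ETS factors such as GABPA, was found in 25 members (41.0%) against 9.93% of all genes. GGGCGG, the GC box, was found in 40 members (65.6%) against 38.2%.

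Other motifs were counted in the same windows on both strands, where matches of different motifs may overlap. AAGATGGC, a YY1 motif, was in 6 members (9.84%) against 3.19% of all genes. CCAAT was in 19 members (31.1%) against 41.1%, and CACGTG, the E-box that Myc binds, in 6 (9.84%) against 8.09%. AACAAT, a core of the motif of Sox factors, was in 2 members (3.28%) against 12.2%. Among the 12 members that rose and have a RefSeq start region, CCGGAAG was in 4, GGGCGG in 8, CCAAT in 3, TATAAA in 2, CACGTG in 1, AACAAT in 1 and AAGATGGC in 0. TATAAA was in 5 of the other 49 members, so the contrast of Rpl22l1 with Rpl41 is one of these 2 genes and not of the groups. A match is only a match of letters, and no binding was measured.

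The other pairs gave smaller values. Rpl36a had 3392, 3192, 3179.6, 3428 and 3339 in the GFP libraries and 3479, 3501, 3752, 3750.3 and 3449 in the Sox11 libraries, which did not overlap, with a log2 fold change of 0.12 (adjusted p = 0.0803). It passed with total-count scaling (0.0275), quantile normalization (0.048) and DESeq2 (0.0272). The paralog Rpl36al had 771 to 860.0 and 831 to 854, a log2 fold change of 0.02 (adjusted p = 0.808). Another annotated gene on the same strand covers 24.5% of the exonic bases of Rpl36al.

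Rps27, a zinc-binding protein of the small subunit, and Rps27l, a paralog known as a p53 target, both lay near 0. Rps27 had 5441, 5375, 5507, 5146 and 5073 in the GFP libraries and 5246, 5361, 4269, 5215 and 5204 in the Sox11 libraries, with Sox11 3 far below the rest and a log2 fold change of -0.07 (adjusted p = 0.477). Rps27l had 546, 677, 542, 506 and 503 and 574, 569, 506, 560.1 and 609.6, a log2 fold change of 0.03 (adjusted p = 0.875). Its highest value was in GFP 3.

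Neither Rpl7 nor the 2 genes that share only the name passed the test. Rpl7, a large subunit protein, had 10525 to 11409.6 in the GFP libraries and 10557 to 11168 in the Sox11 libraries, a log2 fold change within 0.01 of 0 (adjusted p = 0.963). Rpl7l1, which acts in the making of the large subunit, had 2321 to 2540.5 in the GFP libraries and 2388 to 2569 in the Sox11 libraries, a log2 fold change of 0.03 (adjusted p = 0.694). Rps19bp1, which binds Rps19 and regulates the deacetylase Sirt1, had 591 to 746 and 652 to 772, a log2 fold change of 0.11 (adjusted p = 0.394).

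By mean normalized count the highest members were Rpl4, Rpl3, Rplp1, Rpl9 and Rpsa, of which Rplp1 passed the test. Rpl4, which lines the exit tunnel, had 30207, 29897, 30662, 32370.5 and 29839.5 in the GFP libraries and 29455, 28992, 27337, 31733 and 30844 in the Sox11 libraries, a log2 fold change of -0.05 (adjusted p = 0.612). Rpl3, near the peptidyl transferase centre, had 24529.5 to 26648 and 24874 to 26725, a log2 fold change of 0.01 (adjusted p = 0.916). Rpl9, a large subunit protein near the factor-binding site, had 15474 to 16509.5 and 14738 to 17741, a log2 fold change of 0.04 (adjusted p = 0.634).

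Levels can be set against each other only per length. Per 1000 bases of the annotated principal transcript, the GFP mean was highest for Rplp1 (33514 normalized counts), Rps29 (27748) and Rps15 (26671). Its median over the members was 7899, and 59 of the 81 lay within 2-fold of that median. The lowest levels per 1000 bases were those of Rpl13a (712), Rps19bp1 (806) and Rpl36al (1098). Genes on the same strand, snoRNA and microRNA genes among them, cover 35.4% of the exonic bases of Rpl13a.

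Rpl13a had 708 to 789.7 in the GFP libraries and 675 to 791 in the Sox11 libraries, a log2 fold change of -0.05 (adjusted p = 0.632). Rpl36, of which 5.95% of the 31-base words are its own, had 2847 to 3371 and 2745 to 3707, a log2 fold change of 0.00 (adjusted p = 0.987). The share of own words had a median of 72.9% over the members. Of the 10 members with at least 90% own words, 2 rose, among them Rps3, and the median log2 fold change of the 10 was 0.07.

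Processed pseudogenes are the usual place for misassigned reads of these genes. The table held 274 pseudogene rows named after members, whose reads equalled 0.232% of the members' reads. Of the 11 with a mean of at least 10, 1 rose (Rps13-ps4) and 0 fell, where 9.65% of all genes tested rose and 9.36% fell. Rps13-ps4 lay close to that minimum, with a mean of 7.32 for GFP and 14.6 for Sox11, and reached it only through the Sox11 group. Rps13, the member it is named after, had a log2 fold change of -0.0004. Candidates below the minimum were Rpl10l, listed at 0 in all libraries, and Rpl39l, Rpl3l, Rps27rt and Rpl24, with means of at most 10.3 normalized counts in either group. Rpl10l, Rpl39l and Rpl3l are known as paralogs of restricted tissues, whereas Rpl24 is a core protein of the large subunit. The gene Gm28037 covers 47.0% of the exonic bases of Rpl24 on the same strand and is listed at 0 in all 10 libraries, and its part in the low row of Rpl24 was not tested.

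Summed over the 81 members, the share of all recovered reads was higher in the Sox11 group. It was 1.13%, 1.08%, 1.03%, 1.05% and 1.05% in GFP 1, 3, 4, 5 and 6, and 1.17%, 1.17%, 1.18%, 1.14% and 1.11% in Sox11 1, 2, 3, 6 and 7. The means were 1.07% ± 0.0395 and 1.16% ± 0.0289 (SD, n = 5 each), a relative difference of 8.14%. Sox11 7 lay below GFP 1, and no other Sox11 library lay within the GFP range. In a split chosen after seeing the data, the libraries numbered 1 to 3 and those numbered 4 to 7 did not overlap between groups. That lack of overlap follows from the split, which puts GFP 1 and Sox11 7 in different parts. The members' median log2 fold changes in the 2 parts were 0.08 and 0.06. With this split as a covariate over all 10 libraries, 18 members rose and 0 fell. With the same scaling by total reads, the median log2 fold change was 0.11 over the members and 0.04 over all genes.

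Reads on small subunit genes differed a little more between the groups than reads on large subunit genes. The share of reads was 9.52% higher for small subunit genes and 7.20% higher for large subunit genes. The ratio of their summed reads, small over large, ran from 0.687 to 0.694 in the GFP group and from 0.698 to 0.711 in the Sox11 group. The groups did not overlap in this ratio, and how often ratios of other gene sums separate the groups was not tested. By gene, the median log2 fold changes were 0.08 for small and 0.06 for large subunit genes. The median deviation of the members from their own mean, on the log2 scale, ran from -0.05 to -0.01 in the GFP group and from 0.01 to 0.06 in the Sox11 group.

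**Figure D3:**
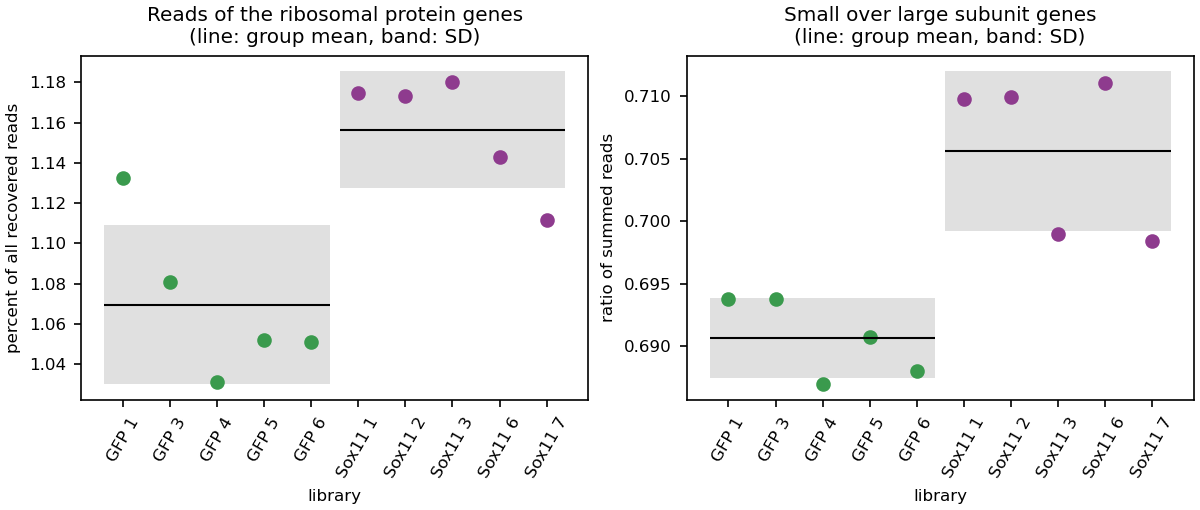
Left, percent of all recovered reads that fell on the 81 ribosomal protein genes in each library, and right, the ratio of reads on small over large subunit genes, with each group's mean as a line and its SD as a band. On the left Sox11 7 (1.11%) lies below GFP 1 (1.13%), and on the right all Sox11 libraries (0.698 to 0.711) lie above all GFP libraries (0.687 to 0.694).

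Some ribosomal components do not carry an Rpl or Rps name. Of 3 such genes, 1 rose and 0 fell. Rack1, a signalling scaffold on the small subunit, had 9393, 9244, 8958, 10136 and 9526 in the GFP libraries and 10714, 10817, 11573, 10658 and 10899 in the Sox11 libraries. The groups did not overlap, and the log2 fold change was 0.21 (SE 0.04, adjusted p = 0.00743). Fau, which encodes a ribosomal protein fused to a ubiquitin-like part, stood at 0.05 on the log2 scale (adjusted p = 0.62).

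Of 18 elongation factors and other genes with TOP mRNAs, 3 rose (16.7%) and 2 fell (11.1%), with a median log2 fold change of 0.05. The shares over all genes were 9.65% and 9.36%. Eef2, which moves the ribosome along the mRNA, had 56998, 55352, 57522, 59048 and 58449 in the GFP libraries and 67240.2, 65168, 67828, 64862 and 65999 in the Sox11 libraries, without overlap, a log2 fold change of 0.20 (adjusted p = 0.00671). Eef1b2, which recharges the tRNA-delivering factor, rose from 6917 ± 147 to 7892 ± 284 (mean ± SD, n = 5 each, adjusted p = 0.00607). Eef1a2, the form of that factor used in mature neurons and muscle, fell by 0.26 on the log2 scale (adjusted p = 0.0292). Its call was lost without GFP 4, 5 or 6 or Sox11 2, 6 or 7, and with total-count scaling (0.052) or quantile normalization (0.0768).

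Of 85 genes that build ribosomes, 5 rose (5.88%) and 3 fell (3.53%), both below the shares of 9.65% and 9.36% over all genes, with a median of 0.00. Xrn2, an exonuclease that trims precursor RNAs, rose by 0.24 (adjusted p = 0.0105), and Taf1c, part of the RNA polymerase I initiation factor, by 0.36 (adjusted p = 0.0143). Gnl3l, a nucleolar GTPase, fell by 0.20 (adjusted p = 0.0294), a call lost without GFP 4, 5 or 6 or Sox11 1, 2, 3 or 6 (adjusted p up to 0.0708). The difference between this list and the ribosomal protein genes was not tested.

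Among 51 translation initiation factors, 5 rose (9.80%) and 2 fell (3.92%), with a median of 0.02. The share that rose was near the 9.65% over all genes, of which 9.36% fell. Eif5a2, a form of the factor that helps ribosomes past difficult peptide bonds, fell by 0.33 (adjusted p = 0.000929). Eif1b, of the start codon scanning factors, rose by 0.23 (adjusted p = 0.00831), and Eif2b2, a subunit of the exchange factor for eIF2, by 0.19 (adjusted p = 0.0171). Of 77 genes of the mitochondrial ribosome, a separate machine, 1 rose (1.30%) and 5 fell (6.49%), both below the shares over all genes, with a median of -0.03. Of these, Mrpl35 fell by 0.20 (adjusted p = 0.00977), Mrpl38 fell by 0.24 (adjusted p = 0.0161, and 0.067 with total-count scaling), and Mrps5 rose by 0.20 (adjusted p = 0.017).

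Of 25 genes of mTORC1 signalling and growth control, 5 rose (20%) and 2 fell (8%), with a median of 0.03. Over all genes 9.65% rose and 9.36% fell. Mycl, of the Myc family of transcription factors that drive ribosome production, had 3715, 3306, 3865, 4882 and 4317 normalized counts in the GFP group and 5778, 5766, 7358, 7100.1 and 7273 in the Sox11 group. The groups did not overlap, with a difference on the log2 scale of 0.73 (SE 0.11, adjusted p = 0.00125). Mxd1, which competes with Myc for its partner Max, rose by 0.32 (adjusted p = 0.00366), and the kinase gene Rps6ka3 fell by 0.38 (adjusted p = 0.00357).

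Myc, Mycn and Larp1 of the same list were singled out after their values were seen. Myc rose from 225 ± 24.3 to 315 ± 25.7 and Mycn from 492 ± 64.2 to 704 ± 88.0 (mean ± SD, n = 5 each), with adjusted p of 0.00523 and 0.00616. Larp1, which holds TOP mRNAs back from translation when mTORC1 is inactive, had 7622, 7409, 7633, 7777 and 8191 in the GFP libraries and 7023, 6886, 7076, 6910.1 and 6702 in the Sox11 libraries. It was lower in every Sox11 library, by 0.16 on the log2 scale (adjusted p = 0.0162, and 0.0781 with total-count scaling).

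**Figure D4:**
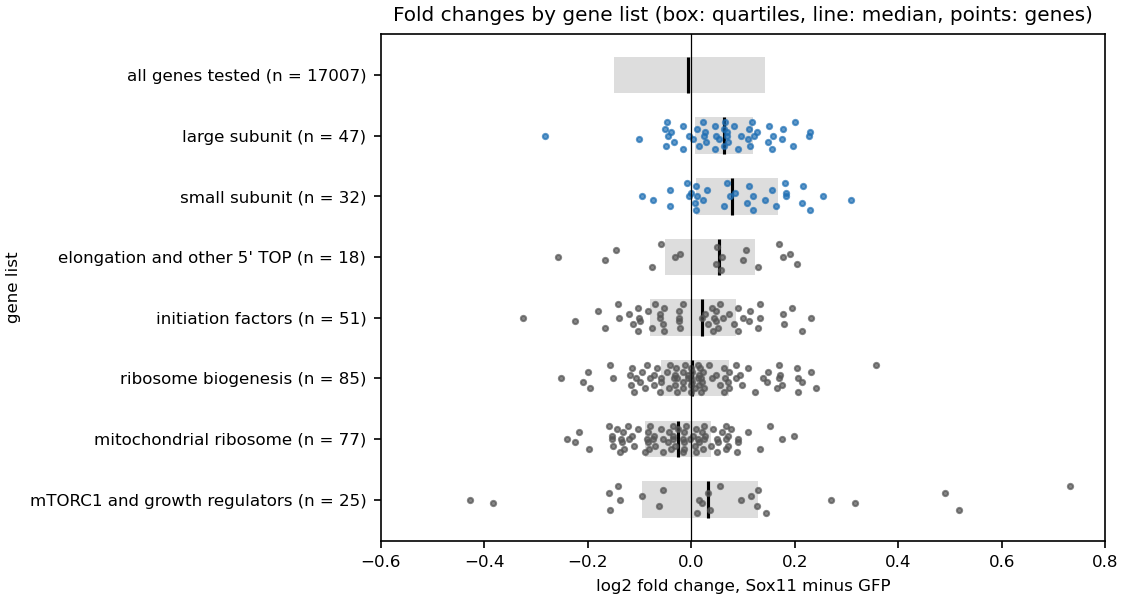
Log2 fold changes (x axis, Sox11 minus GFP) of the genes in each list (y axis), with boxes for the quartiles, a black line for the median and a point for each gene except in the row of all genes. The medians of the large (0.06) and small (0.08) subunit genes lie right of 0, and those of ribosome biogenesis (0.00) and the mitochondrial ribosome (-0.03) do not.

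Of 12 markers of immature neurons 7 rose and 0 fell, and they summed to 26046 to 33450 normalized counts in the GFP libraries and 58687 to 79980 in the Sox11 libraries. For comparison, 9.65% of all genes tested rose and 9.36% fell. The sums of the groups overlapped for the next 4 cell types. Of 10 astrocyte markers 4 rose (sums of 301650 to 384243 and 332219 to 413201), and of 12 microglia markers 4 rose (25941 to 31098 and 26146 to 31626). Of 14 leukocyte markers 7 had enough reads and 2 of them rose, with sums of 375 to 1379 and 750.1 to 1448. Of 10 interneuron markers 3 fell, with sums of 46678 to 54843 and 35992 to 47290.

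Of 10 markers of CA1 and CA3 pyramidal neurons 1 fell, and their sums were lower in every Sox11 library (77336 to 84747) than in any GFP library (89701 to 113237). The single markers were mixed, with a log2 fold change above 0 in 4 and below 0 in 6, and a median of -0.07. Of 12 granule neuron markers 2 rose and 2 fell. No marker passed among 10 of oligodendrocytes (81541 to 152383 and 70954 to 171304), 10 of endothelium (9793 to 18498 and 11072 to 15991), 11 of choroid plexus and 5 tested of ependyma (317 to 1566 and 352 to 1961). None of these markers was at 0 in every library. The part of cell composition in the levels of the ribosomal protein genes was not tested.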

How the data were processed

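The kit that made the libraries selects poly(A) RNA and keeps strand, according to the labels' protocols. Among the tools in the submitters' processing notes are STAR 2.5.2a for the build GRCm38, featureCounts 1.5.1 and DESeq2 1.12.3. The annotation release, the strand setting and the handling of reads with several matches were not given in the sources used here. Normalized counts were deposited, per the labels, a signal in which whole reads were divided by 1 factor per library, as the values show. Dividing each column by its value of 1 read gave whole reads within 0.01.

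Columns were assigned to groups only, because their numbers differ from those in the sample titles, and 0 columns of per-sample values went unused. The samples are separate mice, per the labels, 5 in each group. Symbols, coordinates and overlaps came from GENCODE M21 and matched 48144 of 48526 identifiers. Start regions came from RefSeq.

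Values were tested as log2(normalized count + 1) with limma 3.58.1 (trend and robust options, R 4.3.3) over the 17007 genes with a mean of at least 10, with Benjamini-Hochberg adjustment. Every adjusted p is from that test unless edgeR 4.0.16 or DESeq2 1.42.0, run on the recovered reads, is named. The procedure was tested on simulated data with 200 changed genes. Of 50 genes changed by 1.2-fold there, 22% passed in the right direction. These were drawn from all genes tested, whose standard error had a median of 0.09, against 0.05 over the members. The 22% is therefore not a rate for the members, for which no such rate was simulated. A member that did not pass may still have changed by a small amount. Members, gene lists and tests were chosen with earlier results of these data known. Members named with values are the 12 of lowest p among those that passed, the 5 highest and 5 lowest by mean, paralog pairs, stalk genes and Rpsa, members that are not ribosomal proteins, and the 3 of lowest p in each other list. Some items that this rule names are not reported here, and counts include them. A 31-base word of a transcript was its own where no other annotated gene held it. Alternatives changed the pseudocount, the filter, the scaling, the test and the libraries.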

Additional observations from a re-analysis of the deposited data

Results flagged for a closer look

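In 4 of 70 sets of 5 values examined, 1 library stood apart from the other 4 of its group by more than 0.71 of the group's range. Chance gives such a gap in about 1 in 20 sets, so 4 of 70 is close to that rate. Rplp0, the base of the stalk, had 11187 normalized counts in Sox11 3, and 10305 to 10561 in the other Sox11 libraries. Rps27 had 4269 in Sox11 3, and 5204 to 5361 in the others of that group. Sox11 3 also had the highest count of Sox11 itself. Rps29 had 14929.5 in Sox11 6, and 11623 to 12304 in the others. Rps27l had 677 in GFP 3, the library with the choroid plexus markers, and 503 to 546 in the other GFP libraries.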

How the results depend on the processing

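All 17 members that rose stayed above 0 in each alternative run, and no named gene that passed the test changed sign. Of those that did not pass, Rpl3, Rpl4, Rpl7, Rpl7l1, Rpl36, Rpl36al and Rps27l lay near 0 and changed sign in some alternatives. The number of members that rose was 17 as reported, 11 with no filter on low values (28745 genes tested), 26 with DESeq2 on recovered reads, and 4 in the libraries numbered 1 to 3 and 4 in those numbered 4 to 7, 2 splits chosen after seeing the data that leave fewer samples. It was 2 among the 10 members with at least 90% own words. Leaving out 1 library at a time gave 11 to 20 that rose and 0 to 1 that fell. The 1 that fell was Rpl22l1, without Sox11 6, without Sox11 7, with a minimum mean of 50 (1) and in DESeq2 (1). The median log2 fold change of the members was 0.07 as reported, 0.11 with total-count scaling and 0.0903 with quantile normalization. Total-count scaling also turned 1642 higher and 1592 lower genes into 2372 and 1214. Over all genes, 1013 passed in libraries 1 to 3, against 3234 as reported. The causes of these differences were not tested. Over single named genes and alternatives, 1477 values kept their side of the threshold, 256 lost it and 16 gained it. The column numbers cannot be tied to those of the sample titles, but 1, 3 and 6 occur in both groups. In limma with these numbers as a replicate block, added after seeing the data, 0 members rose and 0 fell (15 at an unadjusted p below 0.05), 42 genes passed and the members' median was 0.08. The same 6 libraries with no such term gave 0 and 0 (22 unadjusted), 603 genes and the same median. Deviations of same-numbered libraries 1, 3 and 6 correlated at 0.19, 0.07 and 0.41 over genes. GFP 1 and GFP 3 correlated most with Sox11 2 (0.37 and 0.62), and GFP 6 most with Sox11 6. With Sox11 6 and 7, GFP 1 and 3 correlated negatively (-0.44 to -0.405) and GFP 4, 5 and 6 positively (0.22 to 0.50). Whether the numbers mark libraries handled together was not tested. Depth limits the genes under a mean of 10, which were not tested, and read assignment limits members with few words of their own.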
